A study of Mus musculus with 9 samples.

Results

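Chemokine receptors, decoy receptors and endothelial chemokines were followed as 10 genes of the 46078 in the count table, taken by gene name. They were the signalling receptor Cxcr4, the atypical receptors Ackr1, Ackr2 and Ackr3, the membrane-bound chemokines Cxcl16 and Cx3cl1, and the secreted chemokines Cxcl9, Cxcl10, Ccl2 and Ccl5. Each name matched 1 row of the table, and all 10 genes passed the filter on low counts, which left 15937 genes for testing. RNA-seq had been done on endothelial cells (ECs) sorted from bone marrow (BM) of wild type B6 mice as CD45-Ter119-CD31+ cells and divided by surface Sca-1. There were 4 libraries of Sca-1+ ECs (library numbers 7, 13, 15 and 19), a fraction that the study places in arterioles, and 5 libraries of Sca-1- ECs (library numbers 8, 10, 14, 16 and 22), a fraction that it places in sinusoids. Both fractions shared strain, genotype and sort, and the labels give no treatment, age or number of mice. The titles of libraries 8, 15, 16 and 19 hold the tag wt. Those of libraries 10, 13, 14 and 22 hold another tag in its place, that of library 7 holds neither, and the tags are not explained. Some titles hold a further number that differs within a fraction, and what it names is not stated. Nothing in the labels says that libraries of one fraction came from separate mice. The p-values therefore measure the spread between these libraries, which may be technical.

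Chemokines are small secreted or membrane-bound proteins that direct the migration of leukocytes and hematopoietic cells through G protein-coupled receptors. Atypical receptors bind chemokines without activating G proteins, and they remove, transport or present the ligand, which is why some are called decoys. BM ECs are known to make chemokines that hold hematopoietic cells in the niche or call leukocytes to the vessel wall, and inflammatory cytokines such as TNF and interferons are known inducers of several of them.

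Of the 10 genes, 6 were higher in Sca-1+ ECs at an adjusted p under 0.05 from edgeR's quasi-likelihood test, 0 were lower and 4 did not pass; with libraries scaled to general endothelial genes in place of TMM, 1 was higher and 4 were lower, a scaling under which 1.36% of the 15937 genes passed as higher and 88.7% as lower. Under TMM scaling, among all 15937 genes tested, 23.3% were higher and 21.4% lower by the same rule, or 44.8% in either direction. The 6 genes were Ackr1, Cxcl16, Cx3cl1, Cxcl9, Cxcl10 and Ccl2. The 4 others were Cxcr4, Ackr2, Ackr3 and Ccl5. The median log2 fold change of the 10 genes was 3.75, beside 0.07 over all genes tested. In 7 of the 10 genes every Sca-1+ library lay above every Sca-1- library, which held for 24.8% of all genes tested, and the fractions were apart in either direction in 43.6%. Levels are given in CPM, which are counts relative to the library size after edgeR's TMM scaling, and fold changes are Sca-1+ over Sca-1- on the log2 scale. Means are given ± SD over the libraries of a fraction. Library totals lay between 21581653 and 25959818 counts, so that 3 counts, taken as the floor of a library, were 0.0996 to 0.209 CPM. The libraries carry no molecular identifiers, so this floor covers counting error only.

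**Figure D1:**
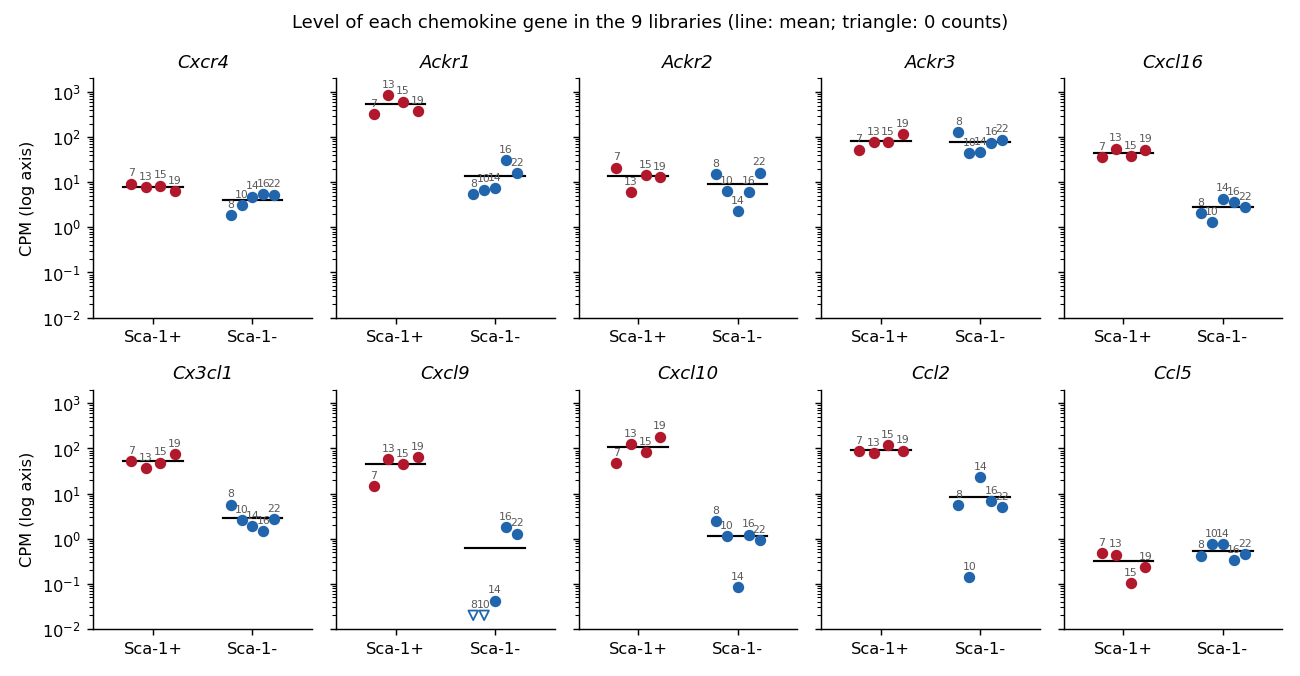
CPM (log axis) of each of the 10 genes in the 4 Sca-1+ libraries (red) and 5 Sca-1- libraries (blue); numbers are library numbers, lines are fraction means, and open triangles mark libraries with 0 counts. At these TMM-scaled levels Ackr1, Cxcl16, Cx3cl1, Cxcl9, Cxcl10 and Ccl2 are far above the Sca-1- libraries in every Sca-1+ library, Cxcr4 is above by a small margin, and Ackr2, Ackr3 and Ccl5 overlap.

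The sort was first checked against marker genes. Ly6a, which encodes Sca-1, was 10.67 higher on the log2 scale (standard error 0.63, adjusted p = 8.1e-06 from edgeR) in Sca-1+ ECs, and Ptprc, which encodes CD45, was lower there (log2 fold change -5.1), whereas Pecam1, which encodes CD31, did not pass (0.74, adjusted p = 0.25). Of 16 general endothelial markers 15 were higher in Sca-1+ ECs, with a summed level of 8482 to 10431 CPM against 773 to 2626 CPM. The exception was Esam, a junction protein that platelets carry too, at 1202 ± 46.5 CPM (n = 4) and 1031 ± 845 CPM (n = 5). Cdh5, which encodes VE-cadherin and defines endothelium, was present in both fractions but low in Sca-1- ECs, at 264 ± 27.2 CPM (n = 4) and 7.14 ± 3.92 CPM (n = 5). All 8 arterial markers were higher in Sca-1+ ECs (summed 824 to 1069 CPM against 9.7 to 38.8 CPM), and so were 5 of 6 sinusoidal markers (summed 1392 to 1810.5 CPM against 68.1 to 318 CPM), the exception Lyve1 being lower. All 12 megakaryocyte and platelet markers were lower, at a summed 26.9 to 42.8 CPM in Sca-1+ and 15747 to 83082 CPM in Sca-1- libraries. In the Sca-1- libraries this sum was above the 773 to 2626 CPM of the general endothelial markers. The name Sca-1- ECs is therefore that of the sort, and differences from Sca-1+ ECs are not shown to lie between endothelial cells. Leukocyte markers summed to 116 to 192 CPM and 1566 to 3178 CPM, with 5 of 7 lower in Sca-1+ ECs. Stromal and mural markers summed to 260.1 to 1924 CPM and 2993 to 40914 CPM, with 4 of 9 higher and 2 lower. Their median log2 fold change was 1.98, so the sum, which follows the most counted genes, and the calls differed in direction. B and plasma cell markers summed to 0.414 to 9.8 CPM and 11.7 to 252 CPM, with 3 of 4 tested lower. The part of these cell mixtures in the chemokine results was not tested beyond the rescaling given below, and in bulk libraries fewer cells of a type and less RNA per cell cannot be told apart. The sample titles also open with a running number whose values do not overlap between the fractions, so anything that followed it cannot be told apart from the fraction.

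Cxcr4 (ENSMUSG00000045382, chromosome 1 from 128588199 to 128592293) encodes the receptor for Cxcl12 that retains hematopoietic stem cells in BM. It was counted at 9.34, 7.7, 8.43 and 6.39 CPM in Sca-1+ libraries 7, 13, 15 and 19, and at 1.86, 3.07, 4.79, 5.55 and 5.29 CPM in Sca-1- libraries 8, 10, 14, 16 and 22. The fractions did not overlap, but the lowest Sca-1+ library and the highest Sca-1- library were close, and the lowest values of all were in Sca-1- libraries 8 and 10. The means were 7.96 ± 1.25 CPM (n = 4) and 4.11 ± 1.59 CPM (n = 5), a ratio of 1.94. The log2 fold change of 0.95 (standard error 0.38, 95% interval 0.11 to 1.79) did not pass the adjusted threshold (adjusted p = 0.063 from edgeR). It passed with the DESeq2 Wald test (0.88, adjusted p = 0.015) and with limma voom (0.96, adjusted p = 0.04).

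Ackr1 (ENSMUSG00000037872, chromosome 1 from 173331886 to 173333750) encodes the Duffy antigen receptor, which on venular endothelium binds many inflammatory chemokines and carries them across the cell. It was counted at 322, 855, 609.6 and 384 CPM in Sca-1+ libraries 7, 13, 15 and 19. In Sca-1- libraries 8, 10, 14, 16 and 22 it was at 5.53, 6.84, 7.34, 31.2 and 16.2 CPM. Every Sca-1+ library was far above the highest Sca-1- library, which was library 16. The mean levels of 543 ± 242 CPM (n = 4) and 13.4 ± 10.8 CPM (n = 5) differed by a ratio of 40.5, and the log2 fold change was 5.33 (standard error 0.61, 95% interval 3.97 to 6.69, adjusted p = 0.00012 from edgeR). Ackr1 shares 361 of its 1405 exon bases with Cadm3 on the same strand in the annotation, and reads there could have been lost or assigned to either gene. Erythroid cells also carry this receptor. Erythroid markers summed to 28.6 to 91 CPM in Sca-1+ and 471 to 1792 CPM in Sca-1- libraries, with 7 of 8 lower in Sca-1+ ECs. The part of erythroid cells in the Ackr1 counts was not tested.

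Ackr2 (ENSMUSG00000044534, chromosome 9 from 121898355 to 121911074), the scavenger of inflammatory CC chemokines known from lymphatic endothelium, was counted at 21.2, 6.13, 14.5 and 12.9 CPM in Sca-1+ libraries 7, 13, 15 and 19. Its Sca-1- levels were 15, 6.35, 2.25, 6.18 and 16.3 CPM in libraries 8, 10, 14, 16 and 22. The fractions overlapped over most of their range, with Sca-1- libraries 8 and 22 above 3 of the 4 Sca-1+ libraries. The log2 fold change was 0.57 (standard error 0.56, 95% interval -0.67 to 1.81, adjusted p = 0.43 from edgeR).

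Ackr3 (ENSMUSG00000044337, chromosome 1 from 90203980 to 90216751), a scavenger of Cxcl12 formerly called Cxcr7, was counted at 52.8, 76.8, 78.6 and 117 CPM in Sca-1+ libraries 7, 13, 15 and 19. In Sca-1- libraries 8, 10, 14, 16 and 22 it was at 128, 44.6, 46.4, 75.6 and 87.6 CPM. The single highest library was Sca-1- library 8, the lowest were Sca-1- libraries 10 and 14, and the Sca-1+ libraries lay between them. The log2 fold change was 0.09 (standard error 0.35, 95% interval -0.69 to 0.86, adjusted p = 0.86 from edgeR), and its sign depended on the scaling and on which libraries were included.

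Cxcl16 and Cx3cl1 are the transmembrane chemokines, which sit on the cell surface through a mucin stalk and are released by the proteases Adam10 and Adam17. Both were higher in Sca-1+ ECs under TMM scaling, and neither passed under endothelial scaling. Cxcl16 (ENSMUSG00000018920, chromosome 11 from 70453983 to 70459984), the ligand of Cxcr6, was counted at 35.7, 55.4, 38.4 and 52.9 CPM in Sca-1+ libraries 7, 13, 15 and 19, and at 2.04, 1.33, 4.33, 3.69 and 2.85 CPM in Sca-1- libraries 8, 10, 14, 16 and 22. The gap between the fractions was wide beside the spread within each. The means of 45.6 ± 10 CPM (n = 4) and 2.85 ± 1.21 CPM (n = 5) gave a ratio of 16 and a log2 fold change of 3.99 (standard error 0.36, 95% interval 3.18 to 4.8, adjusted p = 3.7e-05 from edgeR). In the annotation 552 of its exon bases overlap Zmynd15 on the opposite strand, and the use of strand in counting is not given in the sources used here.

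Cx3cl1 (ENSMUSG00000031778, chromosome 8 from 94772009 to 94782427), or fractalkine, the ligand of Cx3cr1, was counted at 52.7, 36, 48.7 and 74.8 CPM in Sca-1+ libraries 7, 13, 15 and 19. In Sca-1- libraries 8, 10, 14, 16 and 22 it was at 5.71, 2.58, 1.91, 1.46 and 2.69 CPM, so that library 8 stood highest among them and still far below the Sca-1+ libraries. The means were 53 ± 16.1 CPM (n = 4) and 2.87 ± 1.66 CPM (n = 5), and the log2 fold change was 4.22 (standard error 0.42, 95% interval 3.27 to 5.16, adjusted p = 5.7e-05 from edgeR). Of the receptors for the transmembrane chemokines, Cxcr6 reached at most 3 counts and Cx3cr1 at most 41 counts in any library, and neither passed the filter on low counts.

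Cxcl9 and Cxcl10, interferon-inducible ligands of Cxcr3, are neighbours on the minus strand of chromosome 5, and both were much higher in Sca-1+ ECs. Cxcl9 (ENSMUSG00000029417, from 92321347 to 92328079) was counted at 14.8, 58.1, 45.3 and 63.2 CPM in Sca-1+ libraries 7, 13, 15 and 19. In Sca-1- libraries 8, 10 and 14 it had 0, 0 and 1 counts, and in libraries 16 and 22 it had 55 and 32 counts (1.83 and 1.3 CPM). Sca-1+ library 7 was thus the lowest of its fraction, and 3 of the 5 Sca-1- libraries were at or under the floor of 3 counts. The log2 fold change was 6.05 with the widest error of the 10 genes (standard error 1.13, 95% interval 3.55 to 8.56, adjusted p = 0.0017 from edgeR), and it was 6.9 without Sca-1- library 16.

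Cxcl10 (ENSMUSG00000034855, from 92346638 to 92348889) was counted at 46.7, 127, 81.9 and 184 CPM in Sca-1+ libraries 7, 13, 15 and 19, and at 2.46, 1.12, 0.0848, 1.23 and 0.937 CPM in Sca-1- libraries 8, 10, 14, 16 and 22. Library 7 was again the lowest and library 19 again the highest of the Sca-1+ libraries, whereas the Sca-1- libraries that held Cxcl9 (16 and 22) did not stand apart for Cxcl10. The means of 109.9 ± 59.3 CPM (n = 4) and 1.17 ± 0.853 CPM (n = 5) differed by a ratio of 94.2, the largest among the 10 genes, and the log2 fold change was 6.57 (standard error 0.74, 95% interval 4.93 to 8.21, adjusted p = 0.0001 from edgeR). In the annotation 133 exon bases of Cxcl10 overlap Art3 on the opposite strand. The third gene of the cluster, Cxcl11, did not pass the filter. Cxcr3, the receptor of both ligands, had at most 8 counts in any library and was not tested. Macrophages are another known source of both ligands. Markers of macrophages and monocytes summed to 24.6, 21.6, 15.4 and 185 CPM in Sca-1+ libraries 7, 13, 15 and 19. The highest of these sums was thus in library 19, which also had the most Cxcl10. In Sca-1- libraries the sums were 786 to 2469.5 CPM. Of 7 tested markers 1, Lyz2, passed as lower in Sca-1+ ECs, and the median log2 fold change was -0.23. The part of macrophages in these values was not tested.

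The promoter sequences of this neighbouring pair are shown because both genes were higher in every Sca-1+ library. RefSeq windows of 250 bases before the start of transcription (build GRCm38.p6, minus strand, read 5′ to 3′ along the gene) are chr5:92328080-92328329 for Cxcl9 and chr5:92348890-92349139 for Cxcl10. Capitals mark matches, on either strand, to the letters GAAANNGAA, from the core of an interferon-stimulated response element, or to GGGNNNTTC, from a kB site.
Cxcl9: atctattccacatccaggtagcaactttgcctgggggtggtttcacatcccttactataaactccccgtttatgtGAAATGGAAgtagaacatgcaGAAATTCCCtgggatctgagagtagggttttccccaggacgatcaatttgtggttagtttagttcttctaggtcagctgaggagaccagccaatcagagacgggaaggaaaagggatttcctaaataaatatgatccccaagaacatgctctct
Cxcl10: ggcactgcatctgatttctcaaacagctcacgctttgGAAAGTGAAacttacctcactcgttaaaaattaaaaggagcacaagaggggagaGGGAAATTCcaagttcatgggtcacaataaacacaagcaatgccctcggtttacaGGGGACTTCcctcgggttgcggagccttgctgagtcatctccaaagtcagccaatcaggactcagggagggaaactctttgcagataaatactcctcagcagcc
The Cxcl10 window held 1 match to GAAANNGAA, GAAAGTGAA at 213 bases before the start, and 2 matches to GGGNNNTTC, GGGAAATTC at 159 and GGGGACTTC at 104 bases before it. The Cxcl9 window held 1 match to each, GAAATGGAA at 175 and, on the other strand, GAAATTCCC at 154 bases before the start. No match overlaps another. With 1 more letter at its end, as in the fuller spellings of these elements, each pattern would match in Cxcl10 and not in Cxcl9. This was read from the printed letters and holds for these spellings alone. Other spellings of the elements were not searched, so it does not show that Cxcl9 lacks a fuller site. Both strands were searched in all 32851 RefSeq promoter windows of the same length, of which 7.13% held the first pattern, 11.8% the second and 273 windows (0.831%) both. Among the windows of the 10 genes the first pattern was found in Cxcl9 and Cxcl10 and the second in these and in Cxcr4. Of 2 further patterns searched, TTCNNNGAA had no match in any window of the 10 genes (7.02% of all windows), and TATAAA matched in Cxcr4, Ackr3, Cx3cl1 and Cxcl9 (12.4% of all windows). Windows were found for 7 of the 10 genes, not for Cxcl16, Ccl2 and Ccl5, and the spellings were chosen after the values and sequences were seen. A match is a description of letters, not of binding.

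Ccl2 (ENSMUSG00000035385, chromosome 11 from 82035571 to 82037453), which draws monocytes through Ccr2, was counted at 89.1, 80.2, 118 and 90.1 CPM in Sca-1+ libraries 7, 13, 15 and 19. The Sca-1- libraries 8, 10, 14, 16 and 22 were at 5.47, 0.14, 23.6, 6.81 and 5.01 CPM. The Sca-1+ libraries were close to each other, and the Sca-1- libraries were spread widely, with 557 counts in library 14 and 2 counts in library 10. The means were 94.4 ± 16.4 CPM (n = 4) and 8.21 ± 8.98 CPM (n = 5), and the log2 fold change was 3.52 (standard error 0.85, 95% interval 1.63 to 5.4, adjusted p = 0.0069 from edgeR). Leaving out 1 library at a time kept it past the threshold, with log2 fold changes of 3.15 to 4.35, the highest without Sca-1- library 14.

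Ccl5 (ENSMUSG00000035042, chromosome 11 from 83525778 to 83530518), a chemokine of T cells, NK cells and platelets, was near the limit of detection in all 9 libraries. It had 14, 13, 3 and 6 counts in Sca-1+ libraries 7, 13, 15 and 19, and 7, 11, 18, 10 and 11 counts in Sca-1- libraries 8, 10, 14, 16 and 22. The ranges overlapped, and no library stood apart. The log2 fold change was -0.78 (standard error 0.58, 95% interval -2.07 to 0.51, adjusted p = 0.3 from edgeR), so a difference was not detectable at this depth. Markers of T and NK cells summed to 0.647 to 2.05 CPM in Sca-1+ and 17.7 to 78.4 CPM in Sca-1- libraries, with Cd3d, Cd3e, Cd3g, Gzma and Ncr1 at 0 counts in every Sca-1+ library and Gzma at 0 in every Sca-1- library. The Sca-1- sum was nearly all Nkg7, a granule protein gene, at 40.2 ± 23.1 CPM (n = 5) against 0.341 ± 0.287 CPM (n = 4), whereas Trac, which encodes the T cell receptor alpha constant region, was at 0.322 ± 0.502 CPM in Sca-1- and 1.1 ± 0.696 CPM in Sca-1+ ECs. In Sca-1- libraries Cd3e (47 counts) and Cd3g (16 counts) were found in library 14 alone, and Cd3d had at most 2 counts.

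Levels of different genes were compared per kilobase of exon. In Sca-1+ ECs Ackr1 was first at 386 ± 172 CPM per kb (SD, n = 4), clear of all the others, and Ccl2 followed at 82.9 ± 14.4, Cxcl10 at 48.8 ± 26.3 and Ackr3 at 24.3 ± 7.91 CPM per kb. Cxcl16 (15.1), Cxcl9 (15) and Cx3cl1 (13.5 CPM per kb) came next. From Ccl2 down to Cx3cl1 each gene overlapped the next in its range over libraries, so neighbours there could not be ordered. Cxcr4 (4.4) and Ackr2 (4.38 CPM per kb) were below these and could not be ordered either, and Ccl5 was last at 0.327 ± 0.185 CPM per kb. In Sca-1- ECs Ackr3 came first at 22.8 ± 10.2 CPM per kb (SD, n = 5), followed by Ackr1 at 9.54 ± 7.68 and Ccl2 at 7.21 ± 7.89 CPM per kb. There every gene overlapped the next in the order, down to Cxcl10 (0.518) and Cxcl9 (0.21 CPM per kb).

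**Figure D2:**
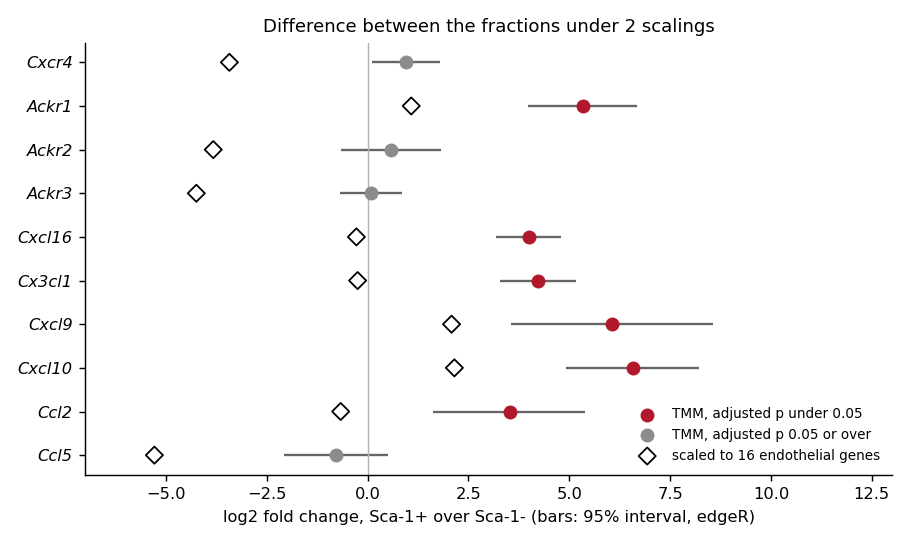
Log2 fold change of each gene, Sca-1+ over Sca-1-: circles with 95% intervals are the edgeR estimates under TMM scaling (red, adjusted p under 0.05; grey, not), and open diamonds are the estimates with libraries scaled to 16 general endothelial genes. The rescaling moves every gene to the left by about the same amount, and 3 of the 10 genes, Ackr1, Cxcl9 and Cxcl10, stay above 0.

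The fold changes depend on what the libraries are scaled to. With the 16 general endothelial genes as the reference in place of the bulk of genes, the median of all genes tested moved by -4.41 on the log2 scale, and 1 of the 10 genes was higher and 4 were lower. This scaling called 1.36% of the 15937 genes higher and 88.7% lower, and the counts of lower genes given under it below, for the 10 genes and for the longer lists, are to be read beside that share. Cxcl10 was the gene that stayed higher (log2 fold change 2.15). Ackr1 was at 1.08 (adjusted p = 0.056 from edgeR) and Cxcl9 at 2.08 (adjusted p = 0.089). Cxcl16, Cx3cl1 and Ccl2 fell to -0.28, -0.25 and -0.67 and did not pass in either direction (adjusted p = 0.53, 0.66 and 0.41). Cxcr4 (-3.43), Ackr2 (-3.83), Ackr3 (-4.25) and Ccl5 (-5.29) were lower under this scaling.

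Of 19 chemokine receptors beyond the 10 genes, 9 were tested, of which 1 was higher in Sca-1+ ECs and 4 were lower, with a median log2 fold change of -3.21 (0 higher and 9 lower when scaled to endothelial genes). Under TMM scaling these calls were 11.1% higher and 44.4% lower, beside 23.3% and 21.4% of all genes tested. Ccrl2, an atypical receptor that binds chemerin, was the higher one, at 33.8 ± 4.91 CPM (n = 4) against 16.2 ± 8.67 CPM (n = 5), with overlapping ranges (log2 fold change 1.06, adjusted p = 0.032 from edgeR). It lost the call when any of 7 libraries was left out, all but Sca-1+ library 7 and Sca-1- library 14 (log2 fold changes of 0.84 to 1.3 over all 9). Xcr1, the receptor of Xcl1 that marks cross-presenting dendritic cells, was lower, with 0 to 13 counts in Sca-1+ and 400 to 1907 counts in Sca-1- libraries (log2 fold change -8.27, adjusted p = 0.00022), and at -9.28 without Sca-1+ library 7.

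The myeloid receptors Ccr1 (log2 fold change -6.94, adjusted p = 0.0085 from edgeR) and Cxcr2 (-4.96, adjusted p = 0.045) were also lower in Sca-1+ ECs. Most of their counts came from Sca-1- library 16, with 3214 for Ccr1 and 1272 for Cxcr2. Without that library the log2 fold change was -4.91 for Ccr1 and -3.66 for Cxcr2 (adjusted p = 0.11), and without Sca-1+ library 19, which held all 42 Sca-1+ counts of Cxcr2, it was -9.03 and -11.27. Library 19 also had the highest neutrophil marker sum of the Sca-1+ libraries, 755 CPM against 8.25 CPM in the lowest and 131 to 737 CPM in Sca-1- libraries, and its part in these values was not tested. Ackr4, the remaining scavenger, did not pass (log2 fold change 0.33, adjusted p = 0.66).

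Of 32 other chemokine ligands 18 were tested, 7 higher and 8 lower in Sca-1+ ECs, with a median log2 fold change of -1.53 (3 higher and 14 lower when scaled to endothelial genes). The TMM calls were 38.9% higher and 44.4% lower, beside 23.3% and 21.4% of all genes tested. The neutrophil chemokines Cxcl1 and Cxcl2 were among the higher ones, at 251 ± 67 and 47.6 ± 9.03 CPM (n = 4) against 6.11 ± 4.37 and 2.94 ± 1.92 CPM (n = 5), with log2 fold changes of 5.36 and 4.02 (adjusted p = 9.6e-05 and 9.1e-05 from edgeR). Cxcl12, the niche chemokine that binds Cxcr4 and Ackr3, was the most counted ligand of Sca-1+ ECs, at 917 ± 539 CPM (n = 4) against 171 ± 107 CPM (n = 5). Every Sca-1+ library was above every Sca-1- library for Cxcl12 (log2 fold change 2.42, standard error 0.59, adjusted p = 0.0071), and Sca-1+ library 13 was the lowest of its fraction at 311 CPM. Stromal and mural markers summed to 1110.3, 260.1, 986 and 1924 CPM in Sca-1+ libraries 7, 13, 15 and 19, also lowest in library 13. In Sca-1- libraries they summed to 2993 to 40914 CPM. The part of stromal cells in the Cxcl12 counts was not tested. Under scaling to endothelial genes Cxcl1 was at 1.12 (adjusted p = 0.045), Cxcl2 at -0.34 (adjusted p = 0.51) and Cxcl12 lower at -1.98 (adjusted p = 0.0088).

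The lower ligands included Cxcl5, Cxcl3 and Ccl21a, whose Sca-1+ libraries were all at or under the floor of 3 counts. Taken against 3 counts in each library, Cxcl5 was at least 1453-fold lower (899-fold without Sca-1- library 10, a check added after the data were seen), Cxcl3 at least 240-fold lower and Ccl21a at least 981-fold lower in Sca-1+ ECs. Ccl21a, a homing chemokine for Ccr7-bearing cells, has near-identical copies in the mouse genome, and its counts are uncertain for that reason.

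The counts of each library on chemokine ligands went to different genes in the fractions. Over 38 ligand genes, the share of all counts was 0.124% to 0.27% in Sca-1+ libraries and 1.48% to 2.48% in Sca-1- libraries. In Sca-1- libraries the platelet alpha-granule chemokines Ppbp and Pf4, named here after their values were seen, took 56.9% to 69.8% and 25.4% to 31.1% of these ligand counts, beside the megakaryocyte marker sums given above. In Sca-1+ libraries Cxcl12 took 30.6% to 73.1%, Cxcl1 7.92% to 23.9%, Cxcl10 2.11% to 12.5% and Ccl2 4.02% to 7.89%. Cxcl10 and Ccl2 took at most 0.00962% and 0.0941% in any Sca-1- library.

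Over 23 receptor genes the share of all counts was 0.0554% to 0.12% in Sca-1+ and 0.0142% to 0.0432% in Sca-1- libraries. Ackr1 took 66.7% to 87% of the receptor counts in Sca-1+ libraries and 2.04% to 8.51% in Sca-1- libraries. Ackr3 took 7.81% to 20.3% in Sca-1+ and 18.3% to 47.1% in Sca-1- libraries, where Xcr1 took 3.57% to 54.6%. The share of Cxcr4 was small in both fractions, 0.783% to 2.05% and 0.687% to 2.79%. These shares are not corrected for gene length, and a share falls when another gene of the set rises.

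**Figure D3:**
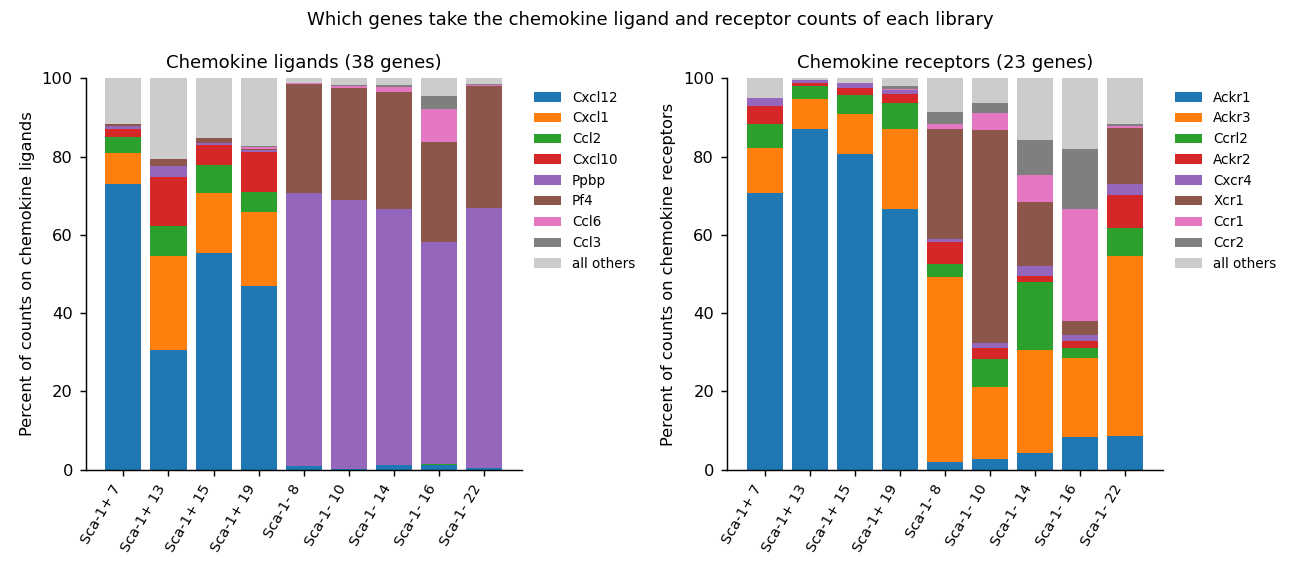
Percent of the counts on 38 chemokine ligands (left) and 23 chemokine receptors (right) taken by each named gene in each library; each bar is 1 library and sums to 100. Cxcl12 and Ackr1 are the widest bands in the 4 Sca-1+ libraries. In the 5 Sca-1- libraries Ppbp and Pf4 fill most of the ligand bars. The receptor bars there are divided among several genes and differ by library. Ackr3 or Xcr1 is the widest named gene in libraries 8, 10, 14 and 22, and Ccr1 in library 16.

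Along the chromosomes, the chemokine genes near Ccl2, Ccl5, Cxcl9 and Cxcl10 were grouped into runs in which neighbouring chemokine genes lay within 500000 bases of each other. This view, and the further ligands named in it, were chosen after the values were seen. Among all genes tested 23.3% were higher and 21.4% lower, and the counts in each run are to be read beside these shares. In the run around Ccl2 (chromosome 11 from 82035571 to 82305690) 3 of 4 tested genes were higher in Sca-1+ ECs. Ccl11, which had 12 to 73 counts in Sca-1+ libraries and 0 in all Sca-1- libraries, was at least 9.51-fold higher against the floor (6.29-fold without Sca-1+ library 19), and Ccl12 at least 21.9-fold higher, whereas Ccl7 had a log2 fold change of 1.6 (adjusted p = 0.081 from edgeR). In the run around Ccl5 (chromosome 11 from 83525778 to 83664683) 0 of 5 genes were higher and 3, the myeloid chemokines Ccl3, Ccl6 and Ccl9, were lower, with log2 fold changes of -6.69, -6.76 and -6.4. Sca-1- library 16 had the most counts of all 3, with 32996 for Ccl6. Without it, a check added after the data were seen, the log2 fold changes were -5.53, -5.56 and -4.69 (adjusted p = 0.023, 0.0061 and 0.01 from edgeR). Without Sca-1+ library 19 they were -11.33 for Ccl3 and -8.86 for Ccl6, and without Sca-1+ library 7 it was -7.34 for Ccl9, all past the threshold.

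Chromosome 5 held a run from 90759360 to 90905938 in which all 6 tested genes differed: Cxcl5, Ppbp, Pf4 and Cxcl3 were lower, and Cxcl1 and Cxcl2, at its other end, were higher. Over all genes tested 44.8% differed in either direction. In the run of Cxcl9 and Cxcl10 (from 92321347 to 92365485) both tested genes were higher.

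**Figure D4:**
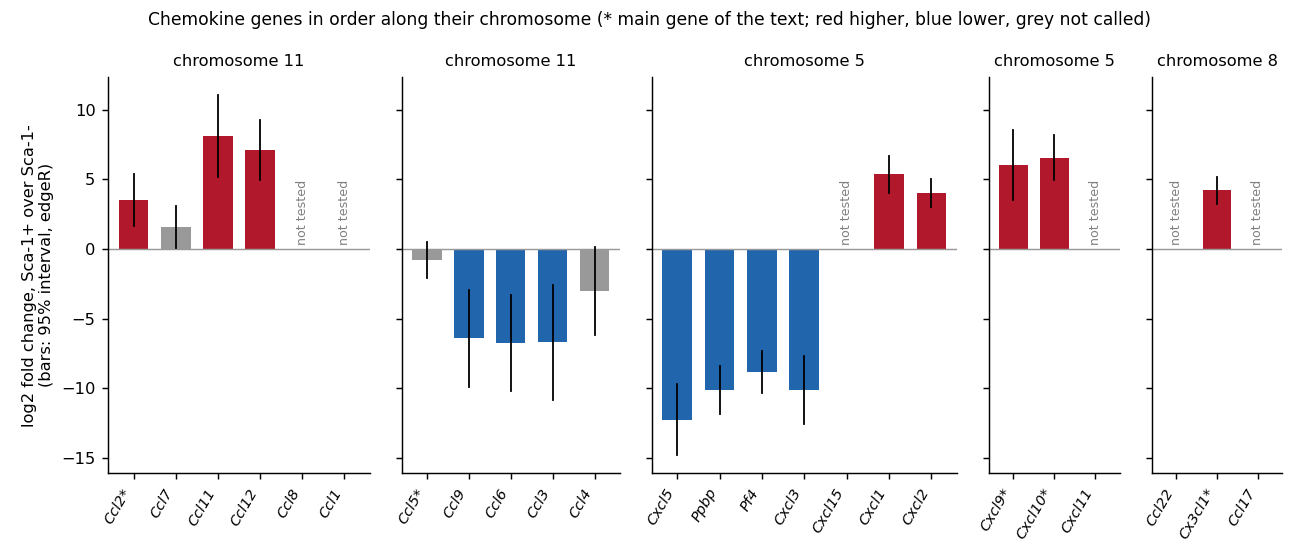
Log2 fold change (bars) with 95% interval (lines, edgeR) of the chemokine genes in order along the chromosome, in 5 runs of 3 or more neighbouring genes; red is higher in Sca-1+ ECs, blue lower, grey not past the adjusted threshold, and asterisks mark Ccl2, Ccl5, Cxcl9, Cxcl10 and Cx3cl1. The first chromosome 5 run changes sign between Cxcl3 and Cxcl1, while no run on chromosome 11 holds genes past the threshold in both directions.

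Of the genes that transmit the receptor signal, 17 were listed and tested, 4 higher and 7 lower in Sca-1+ ECs, with a median log2 fold change of -0.29 (0 higher and 16 lower when scaled to endothelial genes). Under TMM scaling 23.5% were thus higher and 41.2% lower, beside 23.3% and 21.4% of all genes tested, so the share of higher genes was that of any gene. Rgs16, a brake on G protein signals, was higher at 69.2 ± 50.5 CPM (n = 4) against 7.77 ± 4.95 CPM (n = 5), a log2 fold change of 3.15 (adjusted p = 0.0065 from edgeR), or 2.53 without Sca-1+ library 19. The G protein subunit Gng2 (1.54, adjusted p = 0.022) and the regulator Rgs2 (1.38, adjusted p = 0.042) were also higher, with overlapping fractions. Rgs1 (-7.29, adjusted p = 0.0041), Dock2 (-5.49, adjusted p = 0.0075) and Pik3cg (-4.48, adjusted p = 3.8e-05), which serve receptor signals in blood cells, were lower. Sca-1- library 8 had only 5 counts of Rgs1, where the 4 others had 283 to 2034. Without Sca-1+ library 19 the log2 fold change was -9.17 for Rgs1 and -7.37 for Dock2, without Sca-1- library 22 it was -6.4 for Rgs1, and without Sca-1- library 16 it was -4.76 for Dock2. Gng2 lost the call without Sca-1+ library 7 or 15 (adjusted p = 0.068 and 0.06), and Rgs2 without any single library except Sca-1+ library 19 and Sca-1- library 16.

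Of 13 genes that shed, cut or induce chemokines, 11 were higher in Sca-1+ ECs, 1 was lower and 1 did not pass, with a median log2 fold change of 1.09. As shares, 84.6% were higher and 7.69% lower, beside 23.3% and 21.4% of all genes tested. The receptor Tnfrsf1a, through which TNF induces Ccl2 and other chemokines, was at 254 ± 24.9 CPM (n = 4) against 15.3 ± 8.31 CPM (n = 5), a log2 fold change of 4.05 (adjusted p = 4.2e-05 from edgeR). Irf1, an interferon-induced transcription factor, was at 473 ± 260 against 29.6 ± 20 CPM (log2 fold change 4, adjusted p = 0.00044), with the highest value, 858 CPM, in Sca-1+ library 19, which also had the most Cxcl9 and Cxcl10. Tnfrsf1b was higher as well (2.58, adjusted p = 0.00048). Adam10, which sheds Cxcl16 and Cx3cl1, was the gene that was lower, at 214 ± 25.5 against 439.7 ± 205 CPM (log2 fold change -1.04, adjusted p = 0.032), and lost the call without any 1 of the 4 Sca-1+ libraries or without Sca-1- library 8 (adjusted p up to 0.09). Adam17, the other protease named above for these chemokines, went the other way, at 102 ± 16.9 against 59.4 ± 14.9 CPM with overlapping fractions (log2 fold change 0.78, adjusted p = 0.018 from edgeR). With libraries scaled to the endothelial genes, 0 of these 13 genes were higher and 11 were lower.

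The genes whose log2 CPM followed each of the 10 most closely over the 9 libraries were listed among 9866 genes for the 8 with an average log2 CPM of at least 3 (not Cxcr4 and Ccl5), as a description, since the points share the difference between the fractions. Cxcl16 was followed most closely by St6galnac2 (Pearson r 0.998), Cx3cl1 by Wwtr1 (0.993), Ackr1 by Stard9 (0.995) and Lrg1 (0.994), Ccl2 by Tmem51 (0.988) and Cxcl10 by Mertk (0.993). Cxcl9 was followed by Fdx1 (0.995) and by the class I gene H2-M3 (0.992). The nearest genes to Ackr2 and Ackr3, which did not separate the fractions, were D15Ertd621e (0.954) and Cacfd1 (0.874).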

How the data were processed

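Poly(A) RNA of sorted BM ECs had been amplified with the SMART-Seq v4 kit from 2 ng of total RNA per sample. The authors deposited 1 table of raw counts per gene, not normalized. The submitters' processing notes name STAR, featureCounts and the mm10 build, whereas versions, annotation and strand setting are not given in the sources used here. All 9 sample columns were used, and groups came from the labels. Library totals of 21581653 to 25959818 counts set the precision, and no pair of libraries within a fraction agreed within sampling noise.

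Counts were tested in R 4.3.3 with edgeR 4.0.16 (filterByExpr at 10 counts per library and 15 in total, TMM, quasi-likelihood F-test, two-sided, Benjamini-Hochberg adjustment over 15937 genes, threshold 0.05; biological coefficient of variation 0.549). Log2 CPM used a prior count of 2, and the floor of a library was set at 3 counts. Alternatives used DESeq2 1.42.0, limma 3.58.1 (voom), other scalings, filters and libraries. The fit was first tested on simulated data with known fold changes. Few genes were changed there, as many up as down, so the simulation cannot test the choice of scaling. Coordinates, exon lengths and overlaps are those of GENCODE M21 (GRCm38), where 45229 of the 46078 identifiers were found. All 186 listed symbols matched, 4 of them by identifier. Promoters came from RefSeq. Figures used matplotlib 3.10.9 (Python 3.11.15).

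The 10 genes, the gene lists and the tests were chosen with earlier results of these data known. Besides the 10 genes, the text names from each pathway list the top 3 and bottom 3 genes by log2 fold change among those past the threshold with an average log2 CPM of at least 1, the genes that follow each of the 10 most closely, and markers of the sort and of each cell list. Cdh5, Lyve1, Adam17, Ccr2, Cxcr3, Cxcr6, Cx3cr1, Ackr4, Cxcl11, Ppbp, Pf4, Ccl3, Ccl6, Ccl7, Ccl9, Ccl11 and Ccl12 were named outside this rule, after their values were seen.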

Additional observations from a re-analysis of the deposited data

Results flagged for a closer look

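The 10 chemokine genes and the other named pathway genes formed 60 groups of 4 or 5 libraries, by gene and fraction. In 7 of these groups 1 library was far from the rest by Dixon's criterion. Chance gives about 1 in 20 for values without ties, and some groups had ties, so the 7 cannot be set against that rate. None of the 7 belonged to the 10 chemokine genes. Values are log2 CPM. Cxcr2 was at 0.77 in Sca-1+ library 19 (42 counts) and at -3.63, the value of 0 counts, in the 3 others. Ccl21a was at -3.12 in Sca-1+ library 13 (1 count, with 0 in the others), and at 4.94 in Sca-1- library 10, where the others lay between 6.69 and 7.14. Cxcl5 was at -2.44 in Sca-1+ library 15 (3 counts, with 0 in the others). Where all other libraries were tied at 0 counts, as for Cxcr2, Ccl21a and Cxcl5 in Sca-1+ ECs, any count above 0 is flagged. Rgs16 was at -1.0 in Sca-1- library 10 (6 counts), below the 2.55 to 3.7 of the others. Rgs2 was at 6.17 in Sca-1+ library 19, where the others lay between 6.9 and 7.01. Rgs1 was at -1.39 in Sca-1- library 8 (5 counts), below the 4.25 to 6.37 of the others. The cause of these values was not tested.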

How the results depend on the processing

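The count of the 10 chemokine genes higher in Sca-1+ ECs stayed between 6 and 7 under every alternative except scaling to endothelial genes, and Ackr1, Cxcl16, Cx3cl1, Cxcl9, Cxcl10 and Ccl2 kept direction and call there. That scaling, which moves the median gene by -4.41 and calls 1.36% of all genes higher and 88.7% lower, gave 1 higher and 4 lower of the 10 genes, 0 and 9 of the other receptors, 3 and 14 of the other ligands, 0 and 16 of the signalling genes, and 0 and 11 of the processing and inducing genes. It turned Cxcr4 to -3.43, Ackr2 to -3.83, Ackr3 to -4.25, Cxcl16 to -0.28, Cx3cl1 to -0.25, Ccl2 to -0.67, Ccrl2 to -3.45, Cxcl2 to -0.34, Cxcl12 to -1.98, Rgs16 to -0.94, Gng2 to -2.76, Rgs2 to -2.86, Tnfrsf1a to -0.23, Irf1 to -0.15 and Tnfrsf1b to -1.99 on the log2 scale. Scaling to library size alone moved the median gene by 0.353, and leaving out Sca-1- library 8, 10 or 14 by -0.117, -0.108 and -0.146. Ackr3, never past the threshold outside endothelial scaling, turned to -0.02 with DESeq2's size factors or Wald test, to -0.16 and -0.27 in the 6 paired libraries with and without the replicate block, to -0.34 without Sca-1+ library 19 and Sca-1- library 10 together, and to -0.13, -0.12 and -0.14 without Sca-1+ library 19, Sca-1- library 10 or Sca-1- library 14 (range of single omissions -0.14 to 0.28).

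The number that ends a title is not shared between the fractions, but the titles of Sca-1+ library 15 and Sca-1- library 16 hold the same further number, and what it names is not stated. The titles of Sca-1+ library 13 and Sca-1- library 14 share a tag that Sca-1- library 22 holds too. Taken as pairs, libraries 7 with 8, 13 with 14 and 15 with 16 gave correlations of deviations of 0.147, 0.148 and 0.042. Every other pairing of a Sca-1+ with a Sca-1- library lay between -0.191 and 0.065. The values for 7 with 8 and 13 with 14 were thus above all others, and that for 15 with 16 was within their range. Whether these libraries are paired cannot be told from these values, and the main fit took them as unpaired. As a replicate block these pairs left 0 of the other receptors, 3 of the other ligands, 2 of the signalling genes and 6 of the processing and inducing genes higher, and 0 of the last lower. The same 6 libraries without the block gave 7 and 0 for the last list. Without Sca-1+ library 19 and Sca-1- library 10 together, 0 other receptors were higher and 0 processing and inducing genes lower, which was also 0 with library size alone and 2 with the DESeq2 Wald test. Over all genes tested, these settings gave in that order 2945 higher and 3132 lower of 16276, 4158 and 2431 of 15937, and 3987 and 4253 of 15937. Leaving out 1 library at a time gave 0 to 1 other receptors higher, 2 to 4 signalling genes higher, and 7 to 10 processing and inducing genes higher and 0 to 2 lower. Over all genes tested these omissions gave 3098 to 3708 higher and 2859 to 3577 lower.

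Cause was not tested for any of these changes. Depth limits Ccl5 (3 to 18 counts) and, in Sca-1- ECs, Cxcl9 and Cxcl10.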
